A study of Rattus norvegicus with 24 samples.

Results

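Glucose, lactate and small peptides cross the membranes of retinal cells and of the blood-retinal barrier on dedicated carriers, and 8 of the genes for these carriers were followed in the rat retina after streptozotocin (STZ), the beta cell toxin that makes rats insulin-deficient and hyperglycemic. The 8 genes were Slc2a1, Slc2a3 and Slc2a4 for glucose, Slc16a1, Slc16a7 and Slc16a8 for lactate and other monocarboxylates, and Slc15a1 and Slc15a2 for di- and tripeptides. They were found through the RefSeq accession of each probe and were 8 of the 4013 genes that could be given a symbol. Together they had 11 probes, since Slc2a3, Slc16a1 and Slc15a2 had a pair each. Whole retina RNA was taken from Sprague Dawley males and put on CodeLink rat arrays, with 6 arrays in each of the groups 1M Control, 1M STZ, 3M Control and 3M STZ, where M is the months after injection and controls received vehicle. The rats of the 1 month and 3 month sets were raised and killed separately, so time and animal set cannot be told apart. The methods do not tie arrays to rats, and the animal table of the study lists fewer 1 month control rats than the 6 arrays of that group, so the p-values measure the spread between arrays. Each STZ group was compared with the control group of its own time point.

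Members of the Slc2a family (the GLUT proteins) let glucose move down its gradient, and GLUT1, the product of Slc2a1, carries it across the endothelium and pigment epithelium that form the blood-retinal barrier. The Slc16a family (the MCT proteins) moves lactate, pyruvate and ketone bodies together with a proton, which matters in a tissue whose photoreceptors and Mueller glia make large amounts of lactate. The Slc15a family couples the uptake of short peptides to protons, with Slc15a1 (PEPT1) best known from the intestinal brush border and Slc15a2 (PEPT2) from kidney tubule, choroid plexus and astrocytes.

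Levels are given as scaled intensity, the background-subtracted brightness of a probe divided by the median of the rat probes of its array, so that 1 is the brightness of the middle probe. A probe was tested when its median over the 24 arrays was above 0.554, which 22025 probes were. Differences are log2 STZ minus control with the standard error (SE) of the limma model, and the calls needed an adjusted p (Benjamini-Hochberg over all tested probes) under 0.05 with a change of 1.2-fold or more. The probes of Slc2a1, Slc16a1 (both), Slc15a2 (GE19509) and Slc2a3 (GE20342) passed the brightness limit. The other 6 probes did not, among them every probe of Slc2a4, Slc16a7, Slc16a8 and Slc15a1.

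At 3 months 3 of the 5 tested transporter probes were higher in the STZ retina, namely those of Slc15a2, Slc2a1 and Slc2a3, and neither Slc16a1 probe was called. The rise of Slc15a2 was 2.91-fold, against 1.47-fold for Slc2a1 and 1.29-fold for Slc2a3. Of all tested probes 50.5% were called higher at 3 months and 54.1% were called in either direction, so a count of 3 of 5 lay near the background of the comparison. The median log2 difference was 0.37 over the 5 tested transporter probes and 0.44 over all 22025. At 1 month none of the 5 was called by limma and none had an unadjusted p under 0.05, beside 0.00908% of all probes called (2 probes) and 927 with an unadjusted p under 0.05. The methods' t-test also called none of the 5 at 1 month.

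The arrays of the 3 month set differed among themselves in ways that touch each of these values. The interquartile range of log2 intensity was 1.48 to 2.23 in 3M Control and 2.07 to 2.70 in 3M STZ, against 3.36 to 3.67 over both 1 month groups. Median intensity before scaling was 148.8 to 307.6 in 3M Control and 125.3 to 164.0 in 3M STZ. The difference at 3 months followed the level of the probe, with a median log2 difference of -0.59 for rat probes at a mean log2 level of -3 to -2 and 0.60 at a level of 2 to 3. The 3M Control 2 array correlated least with its own group, with a median Pearson r of 0.842. Marker genes placed the tissue as retina, since all 5 rod genes with a probe were tested and their summed scaled intensity was 179.0 to 502.7 over the 24 arrays. At 3 months the markers called higher were 2 of 5 for rods, 1 of 1 for cones, 4 of 7 for Mueller glia, 3 of 5 for ganglion cells, 4 of 6 for bipolar and amacrine cells, 3 of 3 for endothelium, 7 of 8 for lens, 1 of 3 for erythrocytes, 1 of 1 for skeletal muscle and 0 of 2 for retinal pigment epithelium. No marker was lower in this count, which takes the brightest tested probe of each gene, but another probe of the pigment epithelium gene Rpe65 was called lower (GE1232643, log2 difference -0.83). In whole retina, fewer cells of a type and less RNA per cell cannot be told apart.

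**Figure D1:**
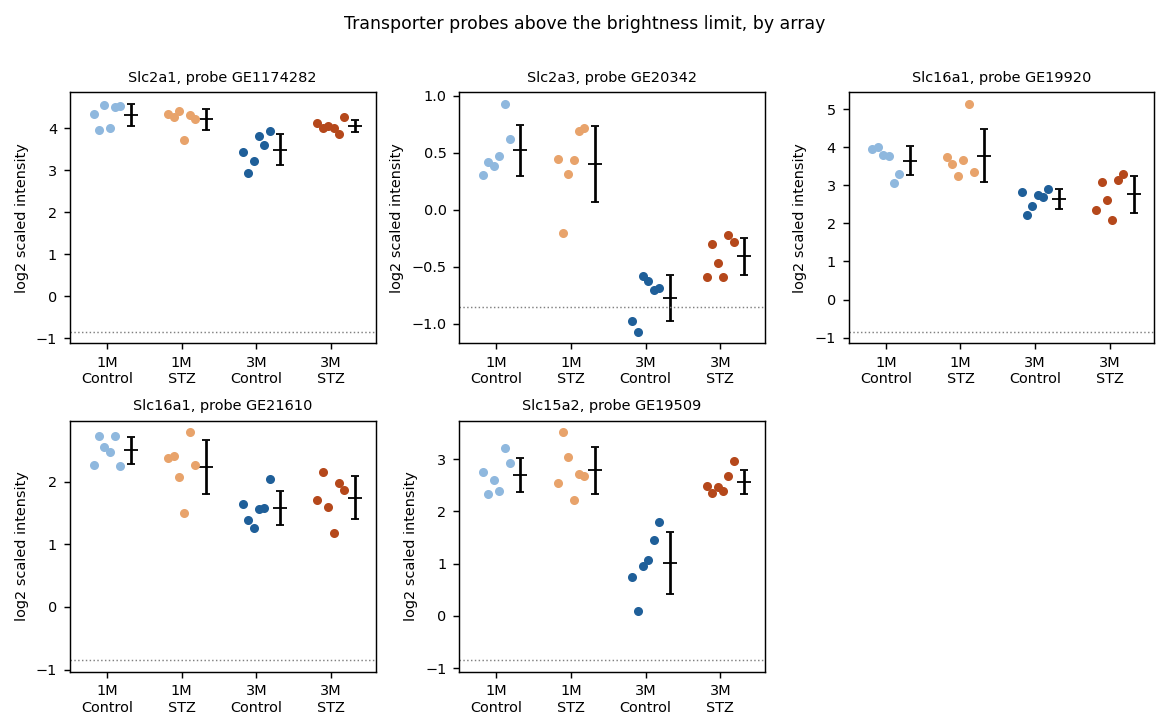
Each panel shows 1 probe above the brightness limit, with the log2 scaled intensity of each of the 24 arrays by group (6 points a group, in replicate order), and beside them the group mean with its SD. The dotted line is the limit of -0.851. For Slc15a2 GE19509 the 6 arrays of 3M Control lie below the 18 other arrays.

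The promoters of 3 of these genes are shown because the effects on Slc15a2 and Slc2a1 were called as different between the time points among the 5 tested probes, and Slc16a1, with no call, is set beside them. Each line is the 250 bases before the annotated start in RefSeq (GRCr8), 5′ to 3′ on the plus strand, at chr11:77519315-77519564 for Slc15a2, chr5:138002272-138002521 for Slc2a1 and chr2:194812410-194812659 for Slc16a1. Promoter windows were held for 6 of the 8 genes (not Slc2a3 and Slc2a4). Capitals mark matches on either strand to 4 motifs, namely the hypoxia response core (ACGTG), the E-box (CACGTG, which contains that core), the GC box bound by Sp1 (GGGCGG, read as CCGCCC on the other strand) and the TATA box (TATAAA).
Slc15a2: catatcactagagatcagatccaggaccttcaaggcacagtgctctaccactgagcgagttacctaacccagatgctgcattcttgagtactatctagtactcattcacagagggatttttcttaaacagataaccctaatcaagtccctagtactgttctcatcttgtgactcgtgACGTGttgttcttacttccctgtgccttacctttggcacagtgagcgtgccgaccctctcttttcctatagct
Slc2a1: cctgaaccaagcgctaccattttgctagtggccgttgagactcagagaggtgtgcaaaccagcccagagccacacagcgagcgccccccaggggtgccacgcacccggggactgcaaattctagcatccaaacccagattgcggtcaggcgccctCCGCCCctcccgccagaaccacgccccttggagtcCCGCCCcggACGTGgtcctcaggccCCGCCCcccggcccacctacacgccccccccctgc
Slc16a1: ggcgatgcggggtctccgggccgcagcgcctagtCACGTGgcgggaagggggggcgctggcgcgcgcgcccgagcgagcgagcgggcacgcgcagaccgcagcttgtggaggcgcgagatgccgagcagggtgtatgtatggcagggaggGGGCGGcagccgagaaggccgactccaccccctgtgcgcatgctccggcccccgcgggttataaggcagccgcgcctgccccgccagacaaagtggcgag
The Slc15a2 window held 1 hypoxia response core, 73 bases before the start. The Slc2a1 window held 1 such core, 51 bases before the start, and 3 GC boxes. The Slc16a1 window held 2 such cores, 216 and 215 bases before the start, both within 1 E-box, and 1 GC box. None held a TATA box. Among 33469 promoter windows of the same length, 16.6% held the hypoxia response core, 5.59% the E-box, 30.5% the GC box and 12.9% the TATA box. The windows were 45.6%, 68.4% and 74.0% G and C for Slc15a2, Slc2a1 and Slc16a1. A match describes these letters only and shows no binding.

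Slc15a2 probe GE19509 showed the largest difference among the transporter probes. It read 1.67, 1.06, 1.94, 2.10, 2.73 and 3.49 on the 3M Control arrays, in replicate order. It read 5.61, 5.14, 5.50, 5.25, 6.39 and 7.85 on the 3M STZ arrays. Every STZ array thus lay above every control array, as was the case for 9.49% of all tested probes. The log2 difference was 1.54 (SE 0.23, 95% interval 1.07 to 2.01, adjusted p = 6.44e-05), and 99.5% of the tested probes had a lower value. The median of the probes of like brightness was 0.60.

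At 1 month the same probe read 5.05 to 9.25 (median 6.38) in 1M Control and 4.62 to 11.4 (median 6.49) in 1M STZ. The groups overlapped, and the log2 difference was 0.09 (SE 0.23, 95% interval -0.38 to 0.55). In order of their medians the groups ran 1M STZ, 1M Control, 3M STZ and 3M Control. The first 3 overlapped in range, whereas the highest 3M Control array (3.49) was below the lowest array of any other group (4.62). The effect at 3 months exceeded that at 1 month by 1.46 on the log2 scale (SE 0.32, adjusted p = 0.0157), in a test that called 15.5% of all probes. This call between time points was lost under cyclic loess, where the test called 0.39% of all probes. It was also lost with array spread as a covariate, where the test called 0%. The 3M Control 2 array gave the lowest value, and without it the log2 difference at 3 months was 1.36.

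The call of GE19509 at 3 months held under quantile normalization (log2 difference 1.17, adjusted p = 0.000786) and under cyclic loess (0.96, adjusted p = 0.00232). There 31.5% and 16.7% of all probes were called. Both methods force the arrays toward a common distribution or trend, and the median of all tested probes was 0.16 and 0.01 under them. Once array spread entered the model as a covariate, the value was 1.10 (adjusted p = 0.476, unadjusted p = 0.00539) and was not called. That limma model called 0 of the 22025 probes, and 1934 had an unadjusted p under 0.05. Summed Mueller glia markers were 65.2 to 184.0 in 3M Control and 175.6 to 237.1 in 3M STZ, with Aqp4 under the limit. Lens markers summed to 129.5 to 325.4 in 3M Control and 407.5 to 827.0 in 3M STZ, without overlap. Their median log2 difference at 3 months was 1.53. The part of either marker set in the Slc15a2 difference was not tested.

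The other Slc15a2 probe did not show this pattern. GE1232246, which carries the same accession, had a median of 0.540 over the 24 arrays and so fell just short of the limit, at the 34.1st percentile of rat probes. It read 1.52, 2.76, 1.37, 1.36, 1.26 and 0.983 in 3M Control. It read 1.19, 0.816, 1.08, 1.63, 0.989 and 0.688 in 3M STZ. The groups overlapped and the STZ median was the lower, 1.03 against 1.37. In the model over all rat probes its log2 difference at 3 months was -0.51 (SE 0.29, 95% interval -1.10 to 0.08, adjusted p = 0.138). With quantile normalization of all rat probes, a setting added after seeing the data, it was called lower (-0.81, adjusted p = 0.0343), and with cyclic loess it was not (-0.32, adjusted p = 0.487).

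The Slc15a2 probes also disagreed over time. Group medians of GE1232246 were 0.263 and 0.213 at 1 month and 1.37 and 1.03 at 3 months, so that every 3 month array was above every 1 month array. For GE19509 the 3M Control arrays were instead the lowest of all. These directions were not particular to the pair. In each treatment, all 6 transporter probes under the limit had higher means at 3 months than at 1 month. All 5 tested ones had lower means. Median array spread was 3.47 in both 1 month groups, 1.81 in 3M Control and 2.50 in 3M STZ. Over the 24 arrays, after the mean of each group was removed, the log2 values of the pair had a Pearson r of -0.18. The probe sequences, which would show the part of the transcript that each one reads, were not used here.

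Slc15a1, the intestinal form, was dim at 1 month and nearer the middle of the array at 3 months. The other probes under the limit were also brighter at 3 months. Its probe GE19503 read 0.0162 to 0.106 in 1M Control and 0.0257 to 0.0677 in 1M STZ. At 3 months it read 0.557 to 1.67 (median 1.03) in control and 0.358 to 0.835 (median 0.491) in STZ retina, with 3 of 12 arrays placed in the overlap of the ranges. The log2 difference in the model over all rat probes was -0.98 (SE 0.34, adjusted p = 0.0248), where 14.2% of all rat probes were called lower. Probes of like brightness had a median of -0.59. With cyclic loess the value was -0.39 (adjusted p = 0.44).

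Slc2a1, the main glucose carrier of the blood-retinal barrier, had a single probe, GE1174282, at the 97.6th percentile of brightness on the array. It read 10.9, 7.62, 9.41, 14.1, 12.1 and 15.4 in 3M Control. It read 17.6, 16.01, 16.6, 16.1, 14.5 and 19.3 in 3M STZ. Of the STZ arrays, 5 were above every control array, and the 14.5 of 3M STZ 5 lay below the 15.4 of 3M Control 6. The log2 difference was 0.56 (SE 0.16, 95% interval 0.22 to 0.89, adjusted p = 0.00722), and 0.45 without 3M Control 2, the lowest array.

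That rise was close to what the array as a whole showed at this brightness, where the median log2 difference was 0.65. It lay at the 63.5th percentile of all tested probes. Under quantile normalization the sign turned, to -0.09 (adjusted p = 0.666), and under cyclic loess to -0.08 (adjusted p = 0.748). The methods' t-test at p under 0.01 and 1.2-fold, which called 16.9% of all probes, did not call it and called the other 2 (Slc15a2 and Slc2a3). Endothelial markers summed to 6.56 to 19.9 in 3M Control and 13.6 to 25.1 in 3M STZ, with Ocln under the limit. Lens markers summed to 129.5 to 325.4 and 407.5 to 827.0. Their part in the Slc2a1 difference was not tested.

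At 1 month Slc2a1 read 15.6 to 23.4 (median 21.6) in 1M Control and 13.2 to 21.3 (median 19.5) in 1M STZ, with a log2 difference of -0.11 (SE 0.16, 95% interval -0.44 to 0.23). In order of medians the groups were 1M Control, 1M STZ, 3M STZ and 3M Control, and each neighbouring pair overlapped. The effects at the 2 time points differed by 0.67 on the log2 scale (SE 0.23, adjusted p = 0.049). That call was at the edge of the threshold, since it was lost in the model over all rat probes (adjusted p = 0.0588), and leaving out any of 19 single arrays of the 24 left Slc15a2 as the only transporter probe called in this test.

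Slc2a3 encodes GLUT3, the high-affinity glucose carrier of neurons. Its tested probe GE20342 read 0.509, 0.476, 0.667, 0.648, 0.612 and 0.620 in 3M Control. It read 0.665, 0.813, 0.722, 0.665, 0.858 and 0.820 in 3M STZ. The ranges overlapped only through 3M Control 3 and the STZ arrays 1 and 4. The log2 difference was 0.37 (SE 0.15, 95% interval 0.06 to 0.68, adjusted p = 0.042), and the effects at 3 months and 1 month were not called as different (0.49, adjusted p = 0.092).

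This call was lost without 3M Control 1 or 2, or without 3M STZ 2, 3, 5 or 6, with values of 0.31 to 0.38. It was 0.86 (adjusted p = 0.000326) under quantile normalization and 0.20 (adjusted p = 0.294) under cyclic loess. The 1 month groups overlapped at 1.24 to 1.91 in control and 0.868 to 1.65 in STZ retina, with a log2 difference of -0.12 (SE 0.15).

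The Slc2a3 probe under the limit, GE21565, moved the other way. Over the 24 arrays its median was below that of GE20342 (0.257 against 0.863). In 3M Control its median was the higher (0.783 against 0.616). GE21565 read 1.09, 2.56, 0.698, 0.867, 0.645 and 0.598 in 3M Control. It read 0.468, 0.449, 0.437, 0.737, 0.365 and 0.311 in 3M STZ. Only 3M STZ 4 reached into the control range. The log2 difference over all rat probes was -1.07 (SE 0.29, adjusted p = 0.00635), and -0.65 (adjusted p = 0.107) with cyclic loess. Probes of like 24-array level had a median of -0.34. The mean log2 level of GE21565 was -1.70 over the 24 arrays, but -0.10 in 3M Control and -1.17 in 3M STZ. Within groups the pair of Slc2a3 probes had a Pearson r of -0.37 over 24 arrays. The direction of Slc2a3 at 3 months therefore differed between its probes.

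Slc2a4 encodes GLUT4, the insulin-regulated carrier of muscle and fat. Its probe GE19942 was at the 10.1st percentile of rat probes. It read 0.0813 to 0.196 in 1M Control and 0.103 to 0.221 in 1M STZ. At 3 months it read 0.290 to 0.682 in control and 0.247 to 0.360 in STZ retina, and 3M Control 1 was the only control array within the STZ range. The log2 difference over all rat probes was -0.60 (SE 0.22, adjusted p = 0.0286), equal within its error to the median of -0.59 at this brightness, and -0.11 (adjusted p = 0.796) with cyclic loess. The muscle markers Ckm, Mb, Actn3 and Tnni2 were under the limit, and Acta1 was tested and was higher at 3 months (log2 difference 0.64). The part of muscle RNA in the Slc2a4 difference was not tested.

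**Figure D2:**
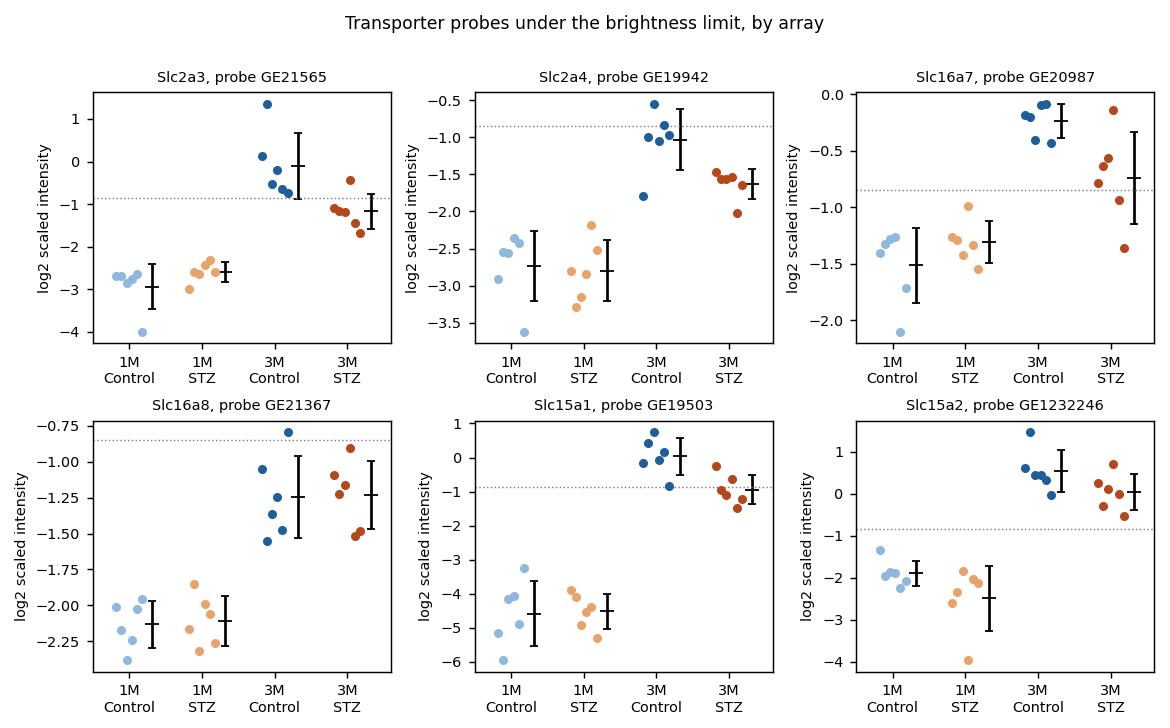
The same display for the 6 probes under the brightness limit (dotted line, -0.851). The 3 month means lie above the 1 month means in each panel, and the 3M Control means are above the 3M STZ means except for Slc16a8.

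Slc16a1 encodes MCT1, which exports or imports lactate in glia, endothelium and pigment epithelium, and both of its probes passed the brightness limit. GE19920 read 4.68 to 7.50 (median 6.61) in 3M Control and 4.25 to 9.93 (median 7.29) in 3M STZ. GE21610 read 2.40 to 4.12 (median 2.97) and 2.26 to 4.43 (median 3.45). In both probes the lowest STZ array, 3M STZ 4, was below every control array, and the groups overlapped. The log2 differences were 0.12 (SE 0.25, 95% interval -0.40 to 0.64, adjusted p = 0.699) and 0.16 (SE 0.18, 95% interval -0.21 to 0.54, adjusted p = 0.452).

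These values were low for probes of this brightness, where the medians were 0.61 and 0.60, and only 23.5% and 26.2% of the tested probes had a lower difference. Under quantile normalization both turned negative, to -0.45 (adjusted p = 0.154) and -0.32 (adjusted p = 0.147). Under cyclic loess they were -0.50 (adjusted p = 0.158) and -0.41 (adjusted p = 0.111). No setting called either probe at 3 months. Within groups the pair correlated with a Pearson r of 0.58 over the 24 arrays.

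At 1 month GE19920 read 8.33 to 16.01 in 1M Control and 9.56 to 35.4 in 1M STZ. The 35.4 belonged to 1M STZ 5, and the other 5 STZ arrays were at 13.5 or less. The log2 difference was 0.13 (SE 0.25), and -0.14 without that array. GE21610 read 4.73 to 6.65 in 1M Control and 2.82 to 6.90 in 1M STZ, with the highest value again from 1M STZ 5, and its log2 difference was -0.26 (SE 0.18, 95% interval -0.64 to 0.11). In both probes each 3 month group had a lower median than each 1 month group.

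Slc16a7 encodes MCT2, a high-affinity carrier for lactate and pyruvate uptake by neurons. Its probe GE20987 read 0.879, 0.870, 0.757, 0.934, 0.941 and 0.740 in 3M Control. It read 0.580, 0.643, 0.678, 0.906, 0.523 and 0.389 in 3M STZ. All but 3M STZ 4 were below every control array. The log2 difference over all rat probes was -0.50 (SE 0.17, adjusted p = 0.0215), where probes of like brightness had a median of 0.03, and it was -0.60 (adjusted p = 0.0231) with quantile normalization and -0.31 (adjusted p = 0.215) with cyclic loess. At 1 month the difference was 0.21 (SE 0.17), with 0.233 to 0.418 in control and 0.343 to 0.503 in STZ retina.

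Slc16a8 encodes MCT3, the lactate carrier of the basolateral membrane of the pigment epithelium. Its probe GE21367 read 0.342 to 0.576 (median 0.405) in 3M Control and 0.3497 to 0.534 (median 0.438) in 3M STZ. The difference was 0.02 (SE 0.14, 95% interval -0.27 to 0.31, adjusted p = 0.927). At 1 month it was 0.02 (SE 0.14) as well. With cyclic loess of all rat probes, however, it was called higher at 3 months (0.43, adjusted p = 0.0412), and with quantile normalization it was not (0.47, adjusted p = 0.0695). Pigment epithelium markers, with Lrat under the limit, summed to 3.07 to 13.4 in 3M Control and 2.70 to 97.7 in 3M STZ.

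Counted together, 4 of the 6 dim probes (Slc2a3 GE21565, Slc2a4, Slc16a7 and Slc15a1) were called lower at 3 months in the model over all rat probes. In that model 14.2% of all rat probes were called lower and 46.3% in either direction. None of the 6 was called higher there, and at 1 month their adjusted p-values were 0.962 or more. The 14.2% mixes bright and dim probes. Of the 22025 tested probes, in their own model, 3.55% were called lower, so lower calls gathered among dim probes. The share among dim probes alone was not counted and would be the closer background. Without 3M Control 2, also chosen after seeing the data, Slc2a3 GE21565 (-0.78, adjusted p = 0.0161) and Slc16a7 (-0.50, adjusted p = 0.0378) were still called, whereas Slc15a1 (-0.91, adjusted p = 0.0612) and Slc2a4 (-0.59, adjusted p = 0.0521) were not, and Slc16a8 turned to -0.04. The count also rested on the scaling, since 5 of the 6 were called lower with quantile normalization. There 16.4% of all rat probes, again bright and dim together, were called lower and 35.5% in either direction. With cyclic loess none was lower and Slc16a8 was higher (3.94% lower and 12.7% in either direction). In that same model over all rat probes without further normalization, which called 10.3% in the test between time points, the effect for Slc2a3 GE21565 was lower at 3 months than at 1 month by -1.41 (SE 0.41, adjusted p = 0.038).

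**Figure D3:**
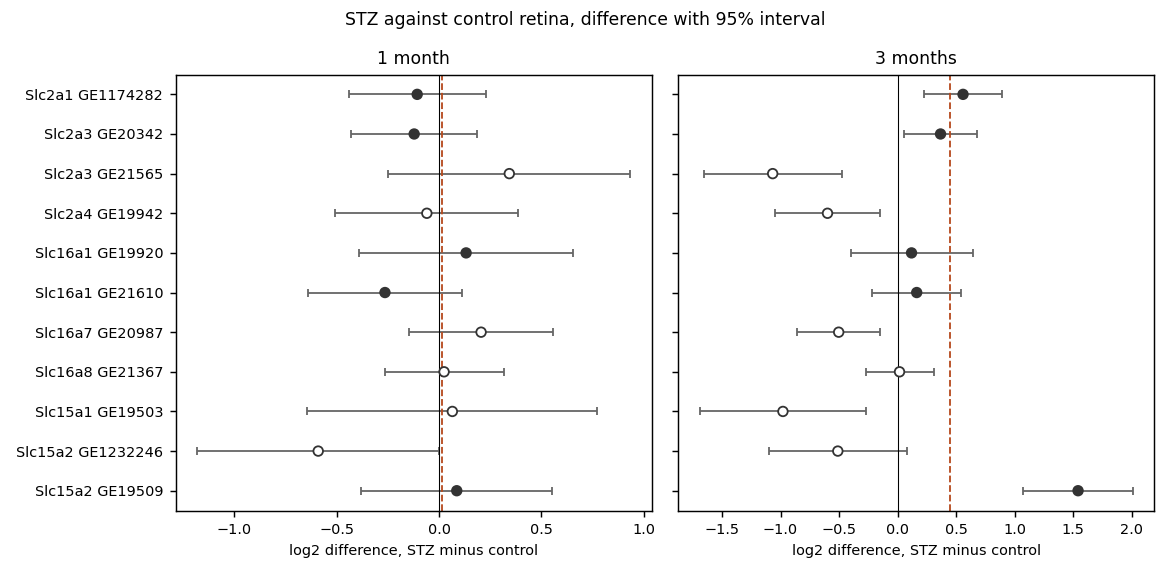
Log2 difference of STZ minus control (x axis) with its 95% interval for each of the 11 probes (y axis), at 1 month and at 3 months. Filled points were tested among 22025 probes, open points come from the model over all rat probes, and the dashed line is the median of all tested probes (0.01 and 0.44). Slc15a2 GE19509 at 1.54 is the farthest from 0.

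**Figure D4:**
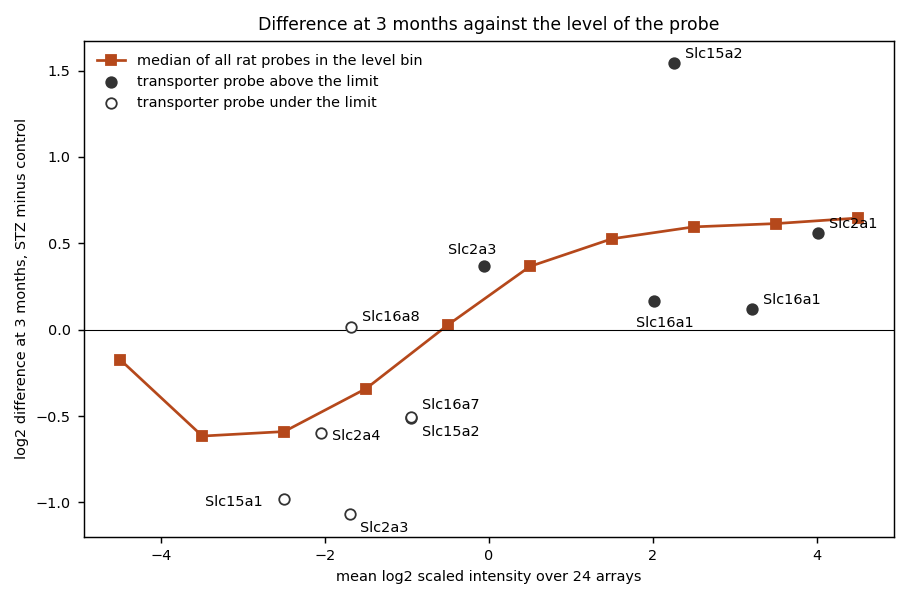
Log2 difference at 3 months (y axis) against mean log2 scaled intensity over 24 arrays (x axis). Squares are the medians of all rat probes in bins of level, and circles are the 11 transporter probes. Slc15a2 GE19509 lies above the median of its bin (1.54 against 0.60), and the Slc16a1 probes lie below theirs (0.12 against 0.61 and 0.16 against 0.60).

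**Figure D5:**
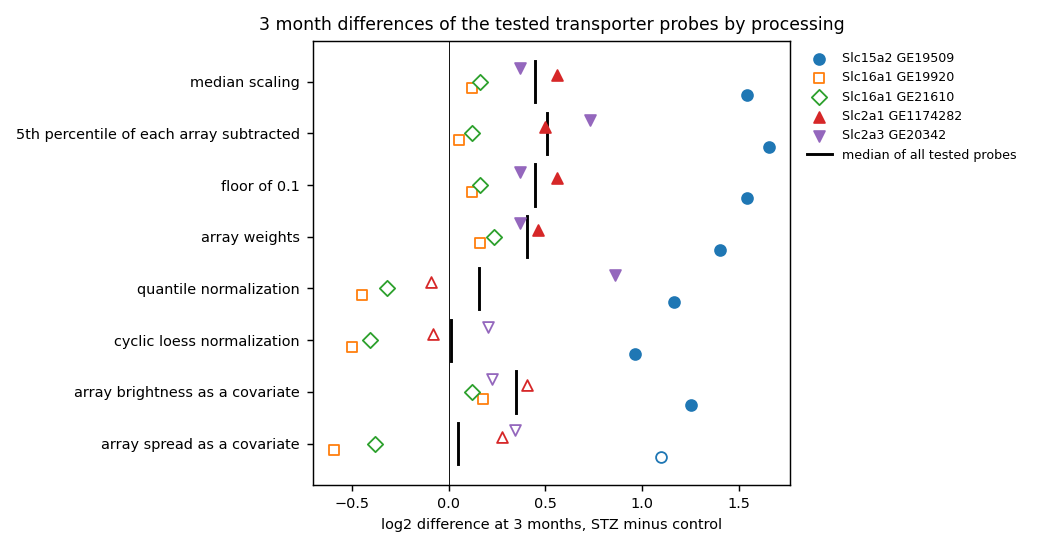
Log2 difference at 3 months (x axis) of the 5 tested probes under 8 ways of processing (y axis). Filled symbols were called, and the black bars are the median of all tested probes. Slc15a2 GE19509 is filled in every row except the last, where the spread of the arrays is a covariate.

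Related genes of the same pathways were counted from 3 lists of 49 genes, of which 26 had a probe and 20 were tested. At 3 months 10 of the 20 were called higher and none lower, with a median log2 difference of 0.36, again beside 50.5% and 0.44 for all probes. At 1 month limma called none of them, and 3 had an unadjusted p under 0.05. After quantile normalization 6 were called higher, and after cyclic loess 3, beside 24.6% and 11.3% of all tested probes.

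Among glucose carriers and kinases, 4 of 10 were higher at 3 months. Hk1, a hexokinase of neural tissue, had the largest rise (0.81, SE 0.19, adjusted p = 0.0018). Slc2a2, which encodes GLUT2, came next (0.78, SE 0.19, adjusted p = 0.00229). Hk1 had a difference of 0.07 under quantile normalization and 0.16 under cyclic loess and was not called there, whereas Slc2a2 was called under both (1.51 and 0.57). The mean log2 level of Slc2a2 was -0.93 in 3M Control, near the brightness limit, and 0.59 in 1M Control.

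Among monocarboxylate carriers and lactate enzymes 5 of 7 were higher. Slc16a3 (MCT4, the lactate exporter of glycolytic cells) differed by 0.47 (SE 0.14, adjusted p = 0.00989), Emb (embigin, an MCT chaperone) by 0.48 (SE 0.17, adjusted p = 0.022) and Ldha (lactate dehydrogenase A) by 0.66 (SE 0.17, adjusted p = 0.00372). All 3 lost the call, with values between -0.19 and 0.14, under quantile normalization and cyclic loess. No probe was named as Bsg (basigin), the usual MCT1 chaperone. Of 3 peptide carriers and peptidases 1 was higher, Slc15a4, a lysosomal carrier of histidine and peptides (0.65, SE 0.14, adjusted p = 0.000891). Its STZ arrays all lay above its control arrays at 3 months, and its difference was 0.15 and 0.07 under the same normalizations, without a call.

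The genes most like each transporter were taken as the tested probes with the highest Pearson r over the 24 arrays, after the mean of each time point was removed. For Slc15a2 they were Drd3 (0.983) and Neu2 (0.978), against a median r of 0.582 with all 3141 other probes that had a symbol. For Slc2a1 they were Pmp22 (0.918) and Nudt22 (0.911), against a median of 0.545, and for Slc2a3 Csnk2a1 (0.846) and Gab2 (0.825), against 0.359. For Slc16a1 the probes gave different genes, Aacs (0.882) and Kcnk2 (0.874) for GE19920 and Nherf1 (0.865) and Slc37a4 (0.831) for GE21610, against medians of 0.213 and 0.278. All these correlations share the same arrays, so they also carry the differences in spread and brightness between arrays.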

How the data were processed

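Whole retina RNA was amplified to biotin-labelled cRNA and hybridized to 1-colour CodeLink rat arrays. According to the methods, slides were read with GenePix 4.0 and CodeLink Expression Analysis 4.1, defective spots were excluded and local background was subtracted. The authors deposited this intensity and the same intensity divided by 1 constant per array, with 0 values that differ by over 1e-06 between array files and series table. No array pair was identical (r within groups 0.786 to 0.984), and 3 values were missing.

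Here intensity was divided by the array's median over its 33849 rat probes, floored at 0.01 and taken to log2. Rat probes above the 35th percentile (0.554) with at least 4 values per group were tested, 22025 in all, in 1 limma 3.58.1 model of the 4 groups (R 4.3.3), and a second model held all rat probes. Alternatives were quantile and cyclic loess normalization, no filter, another floor, background percentile 5 subtracted, separate models, array weights, array covariates, a replicate block, the methods' t-test and leaving out each array. Tested on simulated data for 3M STZ against 3M Control, with 200 of 22025 probes changed by 1 on the log2 scale, the model recovered 89% with 8 false calls. In the real 3 month comparison 54.1% of the tested probes were called. The simulation therefore does not measure false calls in that comparison. Precision is limited by 6 arrays per group.

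Symbols came from RefSeq accessions (4675 probes named of 5469 with an accession). The probes named were all those of the 8 genes, the 2 largest called rises and falls of the related lists plus Bsg, Emb, Slc16a3, Slc15a4 and Ldha, and the 2 probes most like each tested transporter. Members and lists were chosen with earlier results of these data known. Replicate numbers did not pair the arrays (r of same-numbered arrays -0.238 to 0.252).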

Additional observations from a re-analysis of the deposited data

Results flagged for a closer look

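The effect of STZ on the log2 level was larger at 3 months than at 1 month for Slc15a2 probe GE19509, by 1.46 (adjusted p = 0.0157). For Slc2a1 it was larger by 0.67 (adjusted p = 0.049), both by the limma interaction over the tested probes. Neither was called under cyclic loess (0.39% of all probes called) or with array spread as a covariate (0%). Over all rat probes Slc15a2 GE19509 was called (adjusted p = 0.0235), Slc2a1 was not (adjusted p = 0.0588), and the dim Slc2a3 probe GE21565 differed the opposite way, by -1.41 (adjusted p = 0.038). In 44 groups of 6 arrays (11 probes, 4 groups), 5 held an array whose gap to its nearest neighbour was large for the range of the group, where chance gives about 1 group in 20. These were Slc16a1 GE19920 on 1M STZ 5 (log2 level 5.14, the high end), Slc2a1 on 1M STZ 4 (3.73, the low end), Slc15a2 GE1232246 on 1M STZ 4 (-3.97, the low end), Slc2a3 GE21565 on 1M Control 6 (-4.0002, the low end) and Slc2a4 on 3M STZ 5 (-2.02, the low end). The causes were not tested.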

How the results depend on the processing

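Calls at 3 months rested on the choice of normalization. Of the transporter probes called at 3 months (3 of 5), 1 remained called under cyclic loess, 1 with array brightness as a covariate and 1 by the methods' t-test after adjustment (Slc15a2 GE19509 each time). With array spread as a covariate 0 remained, where 1 had an unadjusted limma p under 0.05. In that order, these settings called 16.7%, 18.4%, 8.72% and 0% of all tested probes. With no filter 7 of 11 were called, 3 higher and 4 lower (46.3% of all rat probes, 32.1% higher and 14.2% lower), and in 2 settings chosen after seeing the data 7 (5 lower) with quantile normalization as well and 2 (none lower) with cyclic loess as well. The interaction called 2, against 1 under the replicate block and 1 with array brightness. It called 0 under cyclic loess and 0 with array spread, each with 1 unadjusted p under 0.05. Of all tested probes it called 15.5%, and 11.3%, 5.58%, 0.39% and 0% in those settings. With no filter the interaction also called 2, but Slc2a3 GE21565 (lower) took the place of Slc2a1. The replicate block changed no other transporter call. Of the related genes (10 called), 6 were called under quantile normalization, 3 under cyclic loess and 3 with array brightness. With array spread 0 were called (1 unadjusted p under 0.05). The methods' t-test called 4 at p under 0.01 and 1 after its adjustment. In that order, 24.6%, 11.3%, 17.8%, 0%, 15.8% and 8.12% of all tested probes were called higher. Leaving out single arrays gave 0 transporter calls at 1 month, 2 to 3 at 3 months, 1 to 2 in the interaction and 8 to 10 for related genes.

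Signs turned at 3 months for Slc2a1 (-0.0903 under quantile and -0.0799 under cyclic loess), Slc16a1 GE19920 (-0.45, -0.50 and, with array spread, -0.59) and Slc16a1 GE21610 (-0.32, -0.41 and -0.38). At 1 month, where nothing was called, they turned for Slc15a2 GE19509 (-0.0479 with array brightness), Slc16a1 GE19920 (-0.16 with array weights) and Slc2a1 (0.0300 with array weights). Without 1M STZ 2, Slc15a2 at 1 month was -0.0595 (range over single arrays -0.0595 to 0.20), and without 1M STZ 5, Slc16a1 GE19920 was -0.14 (range -0.14 to 0.24). The causes were not tested. Median intensity before scaling was 148.3 in 3M STZ, against 194.3 to 284.2 in the other groups.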
